A study of Mus musculus with 28 samples.

Results

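The genes described here are 10 negative-feedback regulators of mitogen-activated protein kinase (MAPK) signalling: the dual-specificity phosphatases *Dusp1*, *Dusp2*, *Dusp4*, *Dusp5*, *Dusp6*, *Dusp10* and *Dusp16*, the Sprouty genes *Spry1* and *Spry2*, and the Sprouty-related gene *Spred1*. They were chosen by name, for their role, with earlier results of these data known, and are 10 of the 24089 genes in the deposited RNA-seq table. The study examined how TGF-β and IL-4 act together when mouse CD4+ T cells become IL-9-producing Th9 cells, and asked about the MAPKs ERK, JNK and p38 in that response. RNA was sequenced from 24 libraries, with 3 replicates in each of 8 groups, and DNase I hypersensitive sites (DHSs) were mapped in 4 further libraries.

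All cells were naïve CD4+ CD62L+ T cells from mice of 8 to 10 weeks of age. They are taken here to be from *Tgfbr1* f/f *Ert2-cre*+ mice, the line the paper treated with oil or tamoxifen. The DNase-seq titles name oil or tamoxifen, whereas the RNA-seq titles give only WT or KO. The paper also lists *Tgfbr1* f/f *Cd4-cre*+ mice. *Tgfbr1* encodes the type I TGF-β receptor, and the *Ert2-cre* enzyme acts after tamoxifen in whichever cells express it, not in T cells alone. For that line, mice given oil were the wild-type (WT) source and mice given 1 mg of tamoxifen a day for 5 days were the knockout (KO) source. WT cells then carried the same floxed and Cre alleles, and the effects of the deletion and of tamoxifen itself cannot be told apart. Cells were stimulated with anti-CD3 and anti-CD28 at 1 µg/ml each, with no cytokine added (control), with TGF-β1 at 2 ng/ml, with IL-4 at 10 ng/ml, or with both at the same doses (TGF-β + IL-4, called the combination here). The time of harvest for RNA-seq is not given in the sources used here. In bulk samples, fewer cells expressing a gene and less RNA per cell cannot be told apart.

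Activated MAPKs pass the T cell receptor signal to the nucleus and are switched off when the phosphates on their activation loop are removed. Dual-specificity phosphatases take off both the tyrosine and the threonine phosphate, and many of their genes are induced by the kinases they silence. The family divides by target: DUSP5 and DUSP6 act on ERK in the nucleus and the cytoplasm respectively, DUSP1, DUSP2 and DUSP4 are inducible nuclear enzymes of broader range, and DUSP10 and DUSP16 prefer JNK and p38. Sprouty and Spred proteins work upstream, where they restrain activation of RAS and RAF.

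The columns of the RNA-seq table carry headings that conflict with other data of the study. The study published read counts by library number for 8 WT libraries, those of replicates 1 and 3, and the genes at 0 in those counts match the genes at 0 in a column of the table. All 8 libraries matched the column at their place in library-number order, with at least 99.8493% of genes matched and at most 85.7891% in the next best column, whereas 2 of 8 stood under their own heading. The columns were therefore read by position in library-number order, 12 WT libraries then 12 KO libraries, each run of 4 being control, TGF-β, IL-4 and the combination of 1 replicate number. For the other 16 columns, 4 WT and 12 KO, no counts were listed and position was extrapolated. Both readings give every column the same genotype and differ in culture and replicate. By position, the median SD between replicates over 9726 genes was 0.0892 (WT) and 0.109 (KO) on the log2 scale, and by heading it was 0.141 and 0.112.

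**Figure D1:**
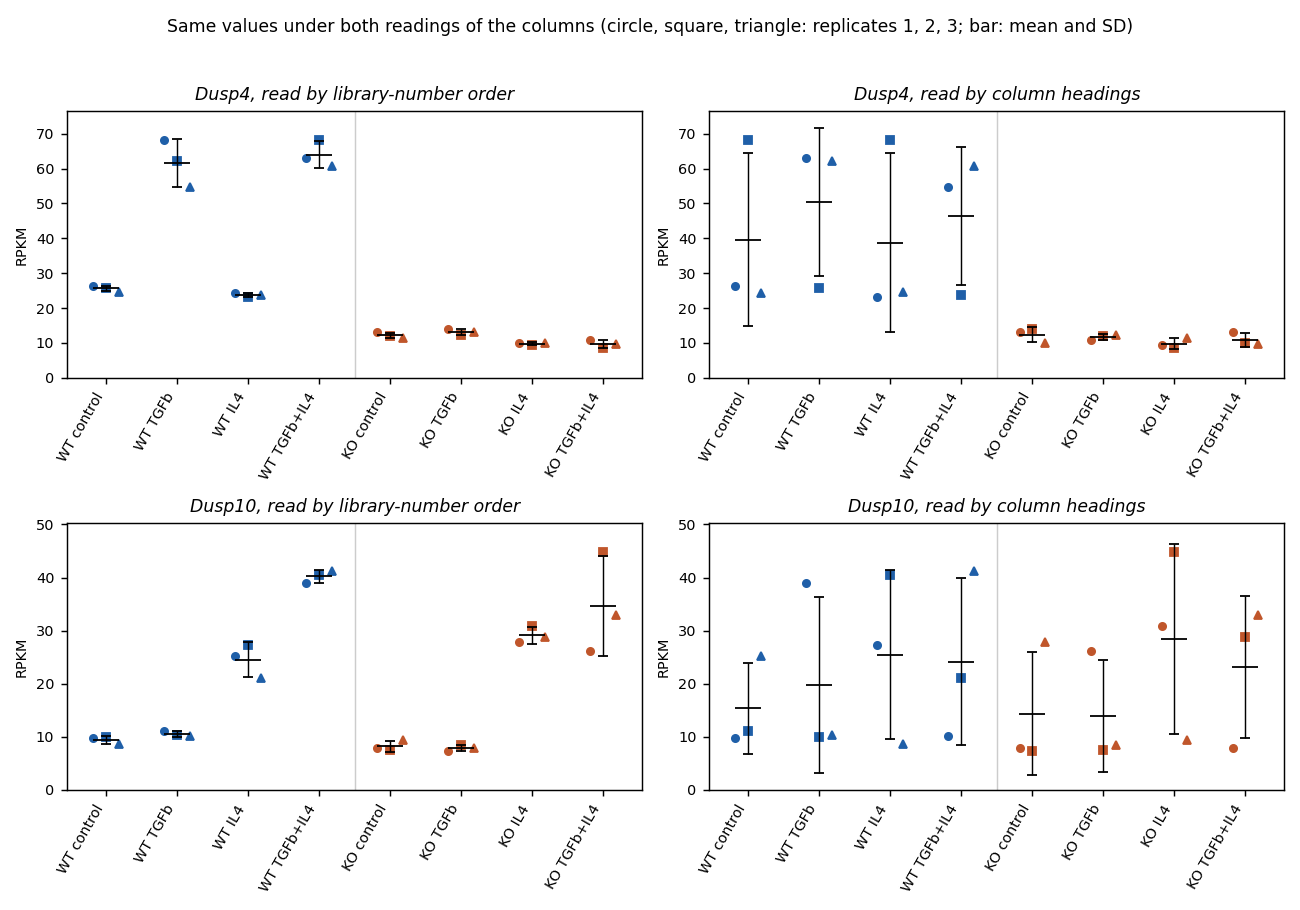
*Dusp4* (top) and *Dusp10* (bottom) in RPKM (vertical axis) in each of the 8 groups, with columns read by library-number order (left) or by their headings (right); points are single libraries and bars the mean and SD of 3. By library-number order the 3 *Dusp4* values of WT TGF-β lie between 54.6 and 68.3, whereas under the headings low and high values mix within single groups.

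The targeted gene was checked first. *Tgfbr1* stood at 3.02, 3.25 and 3.31 RPKM in WT control replicates 1, 2 and 3, and at 2.32, 2.54 and 3.05 in KO control. In WT TGF-β it was 13.9, 14 and 14.5, in WT IL-4 3.69, 3.48 and 3.94, and in the WT combination 17.6, 19.5 and 20.7. No KO library exceeded 5.18. The whole-gene value does not resolve the deleted exon, and the genotypes overlapped in the cultures without TGF-β and did not overlap in those with it. CD4 T cell genes were high in all 24 libraries, with *Cd3e* at 213 RPKM or more and *Cd4* at 75.6 or more. Among markers of other cells, *Cd8b1* reached at least 11 RPKM in every library while *Cd8a* went as low as 1.14, and *Hbb-b1* was listed at 0 throughout while *Hba-a1* was listed at 0 in 21 libraries and reached 21.9 RPKM in WT control. Sequencing depth is unknown, and relative depth, estimated from the smallest steps in the values, ran from 0.794 to 1.66 times that of 1 reference library.

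Over all 24 libraries *Dusp2* was the most abundant member, with a mean of 122 RPKM, higher than 90.5% of the 9726 genes averaging 1 RPKM or more. *Dusp5* (38.3), *Dusp4* (27.5), *Dusp6* (26.5), *Dusp10* (20.6) and *Spry1* (20.0) formed a middle tier, and *Dusp1* had a mean of 8.51. *Dusp16* was low at 1.39, and *Spry2* (0.725) and *Spred1* (0.429) stayed below a mean of 1 and entered no test. RPKM are reads scaled to transcript length and to the number of mapped reads, so levels of different genes can be compared on this scale. Between the lowest and the highest library, *Dusp4* spanned 7.90-fold and *Dusp10* 6.07-fold, against 1.83-fold for *Dusp1* and 1.91-fold for *Dusp2*.

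**Figure D2:**
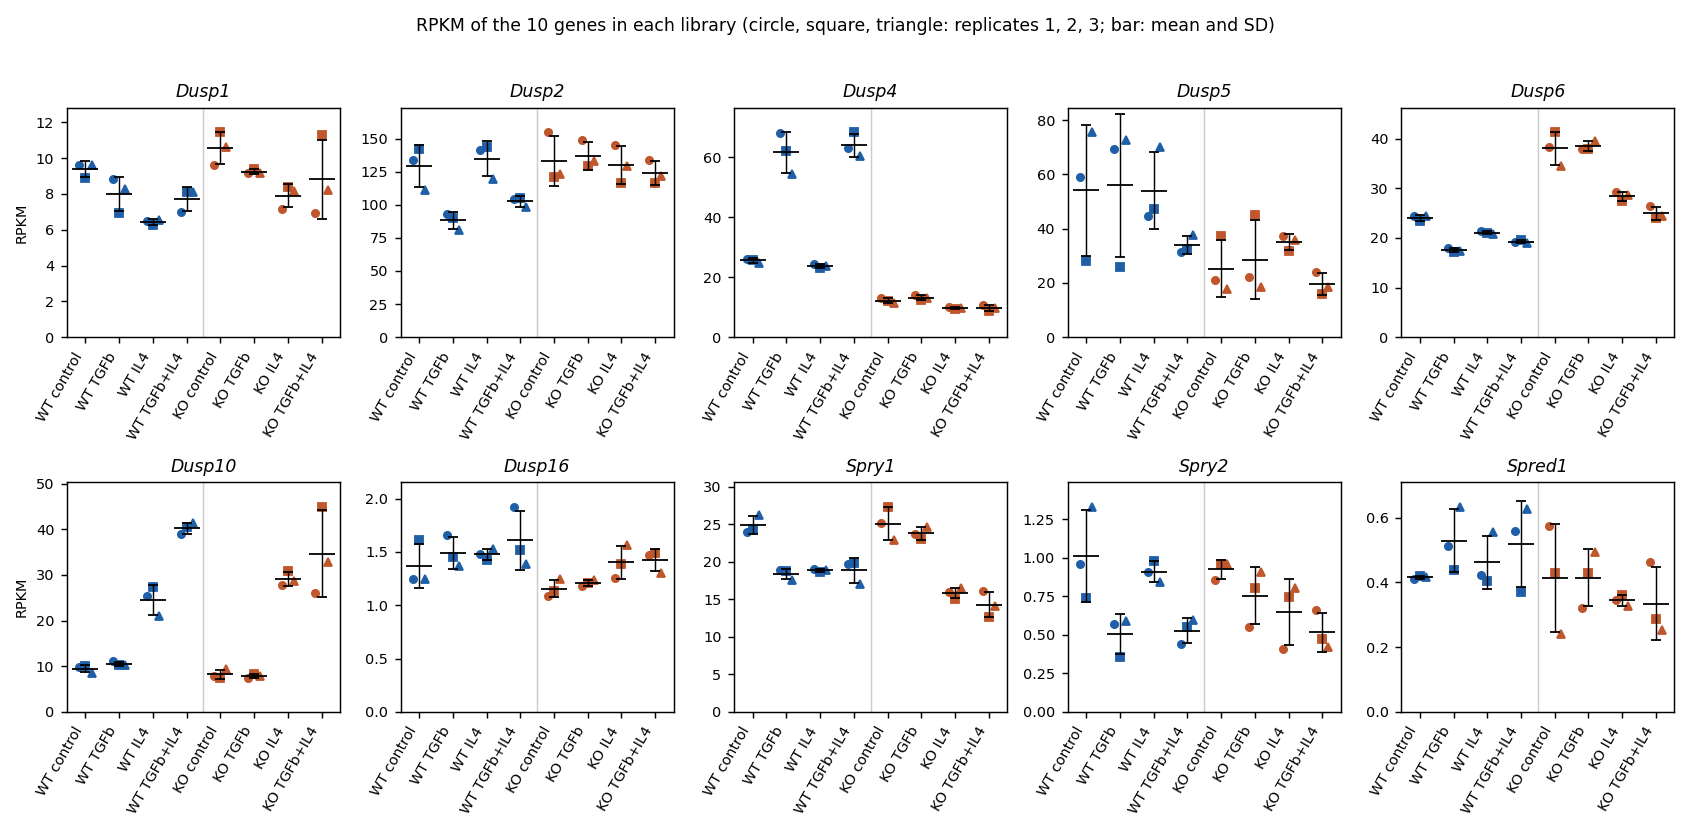
RPKM (vertical axis, from 0) of the 10 genes in the 8 groups (horizontal axis), WT in blue and KO in orange; each point is 1 library and bars are the mean and SD of 3 replicates. *Dusp4* was high in the WT cultures with TGF-β, and *Dusp10* in the cultures with IL-4 of both genotypes.

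Each comparison was fitted with limma on log2(RPKM + 1) over every gene averaging 1 RPKM or more, and calls needed a Benjamini-Hochberg adjusted p below 0.01 together with a fold change above 1.5. Fold changes on this scale understate those of low genes. In every comparison 8 of the 10 members were tested. Among WT cultures, 1 of 8 was called for TGF-β against control, *Dusp4*, where 5.71% of all genes tested were called. For IL-4 against control it was 1 of 8, *Dusp10*, against 1.29% of all genes. For the combination against control 2 of 8 were called, *Dusp4* and *Dusp10*, both higher, against 9.27%, and the median difference of the 8 was -0.28 beside 0.03 over all genes. Against TGF-β alone the combination gave 1 of 8, *Dusp10* (background 3.03%), and against IL-4 alone 3 of 8, *Dusp4* and *Dusp10* higher and *Dusp5* lower (9.28%).

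For TGF-β against control in KO cells limma called 0 of 8 members, and 1 had an unadjusted p below 0.05. Of all genes 0.0105% were called there, which is 1 gene of 9563. IL-4 gave 2 of 8 in KO cells, *Dusp10* higher and *Spry1* lower (background 2.51%), and the combination gave 3 of 8, *Dusp10* higher and *Spry1* and *Dusp6* lower (1.92%). Comparing KO with WT cells in the same culture, 2 of 8 were called in control (2.46%), 3 of 8 with TGF-β (9.68%), 1 of 8 with IL-4 (2.99%) and 2 of 8 in the combination (8.44%). *Dusp4* was lower in KO cells in all 4. The tests of whether a cytokine response differed between genotypes called 1 of 8 for TGF-β (4.71%) and 1 of 8 for the combination (4.18%), *Dusp4* each time. They called 0 of 8 for IL-4, with 4 members at an unadjusted p below 0.05, where 4 genes of 9668 (0.0414%) were called. The test of whether TGF-β and IL-4 combined differently from the sum of their single effects in WT cells also called 0 of 8, against 1.77% of all genes, with 4 members at an unadjusted p below 0.05.

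These background counts moved when libraries were left out. Without replicate 1 in either group the genes called went from 125 to 12 for IL-4 and from 555 to 294 for TGF-β in WT cells, and without replicate 2 the IL-4 count was 73. For the WT combination against TGF-β alone 299 genes became 167, 452 and 143 without replicates 1, 2 and 3. In KO cells the combination went from 185 to 32 without replicate 1 and to 37 without replicate 3, and IL-4 from 241 to 121 without replicate 1. The genotype test of the combination went from 408 to 678 without KO replicate 2, and to 261, 271 and 268 without WT replicates 1, 2 and 3. The test against the sum of single effects went from 173 to 0, 91 and 32 genes without replicates 1, 2 and 3.

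**Figure D3:**
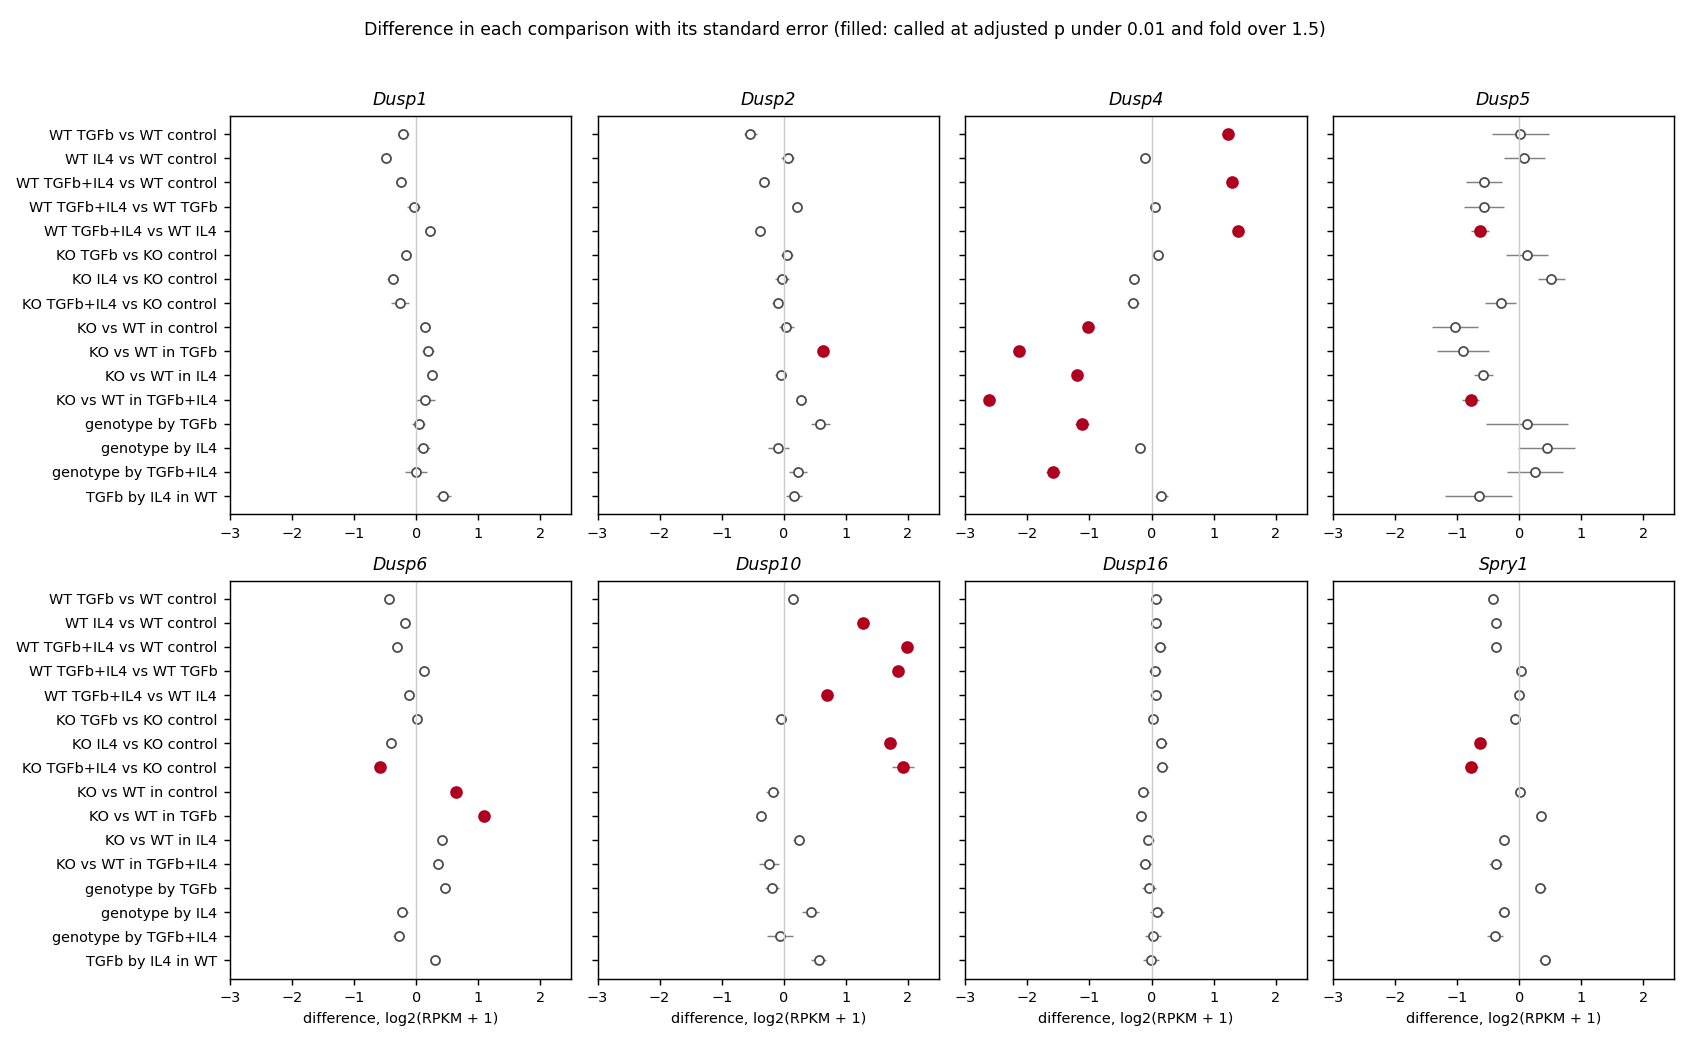
Difference in log2(RPKM + 1) (horizontal axis) with its standard error for the 8 tested genes in the 16 comparisons (vertical axis); for KO against WT and for genotype tests the difference is KO minus WT, and filled points passed both thresholds. *Dusp4* reached -2.61 in the combination between the genotypes, and *Dusp1* and *Dusp16* have no filled point.

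*Dusp4* encodes an inducible nuclear phosphatase and lies at chr8:35870351-35882948 on the plus strand (mm9, GENCODE vM1). In WT replicates 1, 2 and 3 it stood at 26.2, 25.9 and 24.7 RPKM in control and rose to 68.3, 62.3 and 54.6 with TGF-β. With IL-4 it was 24.3, 23.0 and 23.8, and with the combination 63.1, 68.3 and 60.6. The WT cultures with TGF-β all lay above those without, and IL-4 left *Dusp4* near its control level. The rise with TGF-β was 1.23 ± 0.08 on the log2 scale (SE, adjusted p = 3.22e-05), that with the combination was 1.29 ± 0.06 (adjusted p = 5.77e-07), and the difference of the combination from IL-4 alone was 1.40 ± 0.06 (adjusted p = 2.86e-07). The combination differed from TGF-β alone by 0.06 ± 0.08 and IL-4 from control by -0.11 ± 0.05, neither past the threshold.

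In KO cells *Dusp4* was 13.01, 11.98 and 11.4 RPKM in control and 14.1, 12.3 and 13.2 with TGF-β. It was 10.1, 9.34 and 9.83 in IL-4 and 10.7, 8.65 and 9.63 in the combination. Every KO library was below every WT library, those without added cytokine included. KO control was lower than WT control by a log2 difference of -1.02 ± 0.07 (adjusted p = 1e-04), and the differences in IL-4, TGF-β and the combination were -1.20, -2.14 and -2.61, the last with an SE of 0.09 and an adjusted p of 8.58e-07. The response to TGF-β itself was smaller in KO cells by -1.12 ± 0.11 (adjusted p = 2.63e-05), and that to the combination by -1.59 ± 0.11 (adjusted p = 1.64e-06). These calls were kept in every alternative that reads the columns by position. Read by heading, none of them passed. The KO minus WT differences were then -1.45 in control (adjusted p = 0.095), -1.92 in TGF-β (0.0286), -1.70 in IL-4 (0.212) and -1.90 in the combination (0.1). Both readings keep each column in its genotype, and every KO value was below every WT value, so a negative difference was fixed in advance. By heading, the rise with TGF-β in WT cells was 0.40 and that with the combination 0.28. Summed myeloid markers (*Lyz2*, *Itgam*, *Csf1r*, *Cd14*) ran from 3.34 to 5.96 RPKM in WT control and from 0.232 to 1.70 in KO control, with TGF-β from 5.85 to 18.1 (WT) and from 0.957 to 10.1 (KO). Summed CD8 markers (*Cd8a*, *Cd8b1*) were 24.8 to 26.9 RPKM in WT control, 16.6 to 17.3 when TGF-β was added and 14.8 to 16.7 in KO control. By gene, *Cd8b1* was 19.4 to 21.1, 11.0 to 12.3 and 13.6 to 15.4 in that order. *Cd8a* was 5.45 to 6.12, 5.04 to 5.58 and 1.14 to 1.32. Summed NK cell markers (*Ncr1*, *Klrb1c*) were 2.11 to 2.30, 0.558 to 0.802 and 1.41 to 1.94 in the same order. Of the B cell genes, *Cd79a* was 5.67 to 8.20 RPKM in WT control and 2.33 to 3.09 in KO control, and *Ms4a1* 2.01 to 3.34 and 0.882 to 1.15. The part of these cells in the *Dusp4* values was not tested.

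*Dusp2*, the nuclear phosphatase also called PAC-1, is abundant in activated lymphocytes. It was 134, 142 and 111 RPKM in WT control and 93.4, 90.1 and 81.2 when WT cells had TGF-β. In WT IL-4 it was 142, 143 and 119, and in the WT combination 104.7, 105.4 and 98.1. The WT cultures with TGF-β lay below the others without overlap, yet the differences from control were not called. That for TGF-β, -0.54 ± 0.10 (adjusted p = 0.00576), missed the fold threshold, and was called without replicate 3 (-0.59, adjusted p = 0.00122). That for the combination, -0.32 ± 0.08 (adjusted p = 0.0136), missed both thresholds. In KO cells *Dusp2* was 155, 121 and 123 RPKM in control and 149, 129 and 133 with TGF-β, and over all 12 KO libraries it stayed between 116 and 155. KO cells exceeded WT cells in TGF-β by 0.63 ± 0.07 (adjusted p = 0.000218). This call was lost without KO replicate 1 or without WT replicate 3, at 0.57 each time, under the fold threshold. The difference between genotypes in the TGF-β response was 0.59 ± 0.15 with an adjusted p of 0.0243, past 0.05 but not past the threshold. It was called with the replicate number as a block (adjusted p = 0.00027).

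*Dusp5*, an ERK phosphatase of the nucleus and itself an ERK target gene, varied widely between replicates. It was 59.1, 28.0 and 75.5 RPKM in WT control, 69.3, 25.7 and 72.7 with TGF-β, 44.5, 47.1 and 70.2 with IL-4, and 31.5, 32.3 and 37.7 in the WT combination. Replicate 2 was the low library in control and TGF-β but not in IL-4. In KO cells it was 20.9, 37.2 and 17.8 in control, 22.2, 45.1 and 18.4 with TGF-β, 37.4, 31.8 and 35.8 with IL-4, and 24.1, 16.1 and 18.5 in the combination. *Dusp5* was lower in the WT combination than in WT IL-4 by -0.63 ± 0.15 (adjusted p = 0.00789) and lower in KO than in the WT combination by -0.78 ± 0.14 (adjusted p = 0.00394). The first call was lost without any 1 of the 3 replicates, with no filter on low values (adjusted p = 0.0384) and with all 24 libraries in the fit (0.193), and the second without any 1 of the 3 WT replicates or without KO replicate 3, with adjusted p between 0.013 and 0.0208, and under the same 2 settings (0.0132 and 0.104). Without WT replicate 2, *Dusp5* was called lower in the combination than in control (-0.93, adjusted p = 0.000325) and than in TGF-β (-1.02, adjusted p = 2.5e-05). It was then also called lower in KO than in WT cells with TGF-β (-1.39, adjusted p = 0.00951). Without KO replicate 2, it was called higher in KO IL-4 than in KO control (0.89, adjusted p = 0.00225).

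*Dusp1*, the immediate-early phosphatase also known as MKP-1, was called in none of the 16 comparisons by limma. Its group means ran from 6.43 ± 0.163 RPKM in WT IL-4 to 10.6 RPKM in KO control (SD, n = 3). The lowest adjusted p was that of WT IL-4 against control, with a difference of -0.48 ± 0.06 (adjusted p = 0.0038), under the fold threshold. In that culture *Dusp1* was 6.51, 6.24 and 6.54 RPKM, below the 9.64, 8.90 and 9.64 of WT control.

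*Dusp6* encodes the cytoplasmic ERK phosphatase MKP-3 and lies at chr10:98725865-98730122, plus strand. It was 24.3, 23.4 and 24.5 RPKM in WT control, 17.9, 17.3 and 17.3 with TGF-β, 21.5, 20.9 and 20.8 with IL-4, and 19.2, 19.5 and 19.1 in the WT combination. The 4 WT groups did not overlap, and the order was control, IL-4, the combination, TGF-β. The difference of TGF-β from control was -0.44 ± 0.05 (adjusted p = 0.000505) and that of the combination -0.31 ± 0.05 (adjusted p = 0.00121), both under the fold threshold.

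In KO cells *Dusp6* was 38.3, 41.3 and 34.6 RPKM in control and 37.9, 37.9 and 39.6 with TGF-β. It was 29.3, 27.4 and 28.6 in IL-4 and 26.4, 24 and 24.4 in the combination. Thus *Dusp6* was higher in KO than in WT cells in control, by 0.64 ± 0.07 (adjusted p = 0.00113), and in TGF-β, by 1.09 ± 0.05 (adjusted p = 1.03e-06), the opposite direction to *Dusp4*. In IL-4 and in the combination the differences were 0.41 and 0.36 and missed the fold threshold. The control call was lost without KO replicate 2 (0.58) and with the replicate number as a block (adjusted p = 0.0103). Within KO cells *Dusp6* was lower in the combination than in control by -0.59 ± 0.08 (adjusted p = 0.00525). This call was lost with no filter on low values (adjusted p = 0.0186), with the replicate block (0.025) and without any 1 replicate (lowest adjusted p = 0.0235). The genotype test of the TGF-β response gave 0.46 ± 0.08 (adjusted p = 0.00287), under the fold threshold.

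*Dusp10* encodes MKP-5, a phosphatase of p38 and JNK, and lies at chr1:185837181-185899515 on the plus strand. In WT replicates 1, 2 and 3 it was 9.75, 10.0 and 8.62 RPKM in control and 11.1, 10.3 and 10.2 with TGF-β. It was 25.3, 27.4 and 21.0 in IL-4, and 38.9, 40.4 and 41.3 in the combination. IL-4 cultures stood above those without IL-4, and the combination above IL-4 alone, with no overlap at either step. The rise with IL-4 was 1.28 ± 0.10 (adjusted p = 0.000266), that with the combination was 1.98 ± 0.07 (adjusted p = 1.08e-07), and the combination exceeded TGF-β alone by 1.84 ± 0.06 (adjusted p = 7.03e-07) and IL-4 alone by 0.70 ± 0.09 (adjusted p = 0.000208). TGF-β without IL-4 gave 0.14 ± 0.07. The excess of the combination over the sum of both single responses was 0.56 ± 0.12 with an adjusted p of 0.0126 and was not called. The IL-4 call was lost without replicate 1 (1.28, adjusted p = 0.0212) and the call of the combination against IL-4 alone without replicate 3 (0.57, under the fold threshold).

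KO cells also raised *Dusp10* with IL-4. It was 7.89, 7.43 and 9.39 RPKM in KO control, 7.40, 8.37 and 7.91 with TGF-β, 27.8, 30.8 and 28.7 with IL-4, and 26.1, 44.9 and 32.9 in the KO combination. The last 2 groups overlapped, and replicate 2 of the combination was the highest of all 24 libraries. It lay above the WT combination (38.9 to 41.3 RPKM) and had the lowest relative depth (0.794). Replicates 1 and 3 lay below the WT combination, so the KO mean there depends on replicate 2. The rise was 1.71 ± 0.09 with IL-4 (adjusted p = 4.91e-06) and 1.92 ± 0.18 with the combination (adjusted p = 0.000614), the latter lost without replicate 3 (2.03, adjusted p = 0.0244). The genotype tests gave 0.43 ± 0.14 for the IL-4 response (adjusted p = 0.41) and -0.06 ± 0.21 for the response to the combination (adjusted p = 0.889). KO differed from WT by 0.24 ± 0.09 in IL-4 (adjusted p = 0.121) and by -0.24 ± 0.16 in the combination (adjusted p = 0.292). Markers of other cells also moved with IL-4. In KO cells summed CD8 markers were 14.8 to 16.7 RPKM in control, 26.3 to 27.2 with IL-4 and 26.3 to 28.3 with the combination. NK cell markers were 1.41 to 1.94, 2.63 to 3.94 and 3.06 to 4.63, and summed CD4 T cell markers 1400 to 1470, 1080 to 1180 and 1100 to 1220. Single CD4 T cell genes differed between KO control and KO IL-4. *Cd5* went from 415 to 443 down to 249 to 275, and *Cd28* from 66.6 to 81.5 down to 36 to 41. *Cd4* went from 111 to 122 down to 94.4 to 101. *Cd3e* (225 to 238 and 213 to 236), *Cd3g* and *Lck* overlapped. In WT cells IL-4 took summed CD8 markers from 24.8 to 26.9 up to 29.9 to 36.3 and NK cell markers from 2.11 to 2.30 up to 3.45 to 5.35. In the WT combination, with the highest mean *Dusp10*, these sums were 25.3 to 26.7 and 1.51 to 2.03. The CD8 genes did not move alike. *Cd8a* was 5.45 to 6.12 RPKM in WT control, 5.20 to 6.18 with IL-4 and 8.13 to 8.87 in the combination. *Cd8b1* was 19.4 to 21.1, 24.7 to 30.4 and 16.4 to 18.4 in the same order. Summed CD4 T cell markers in that order were 1330 to 1410, 1150 to 1170 and 1450 to 1480. Their part in the *Dusp10* values was not tested. *Dusp16*, whose product MKP-7 also acts on JNK and p38, ranged from 1.09 to 1.92 RPKM over the 24 libraries, close to the filter, with group means from 1.16 to 1.61. It was called in no comparison by limma, and none of its differences exceeded 0.17 in size.

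*Spry1*, a restrainer of receptor-to-RAS signalling that T cells induce on activation, lies at chr3:37538869-37543520, plus strand. It was 24.01, 24.3 and 26.3 RPKM in WT control and between 17.0 and 19.8 in the 9 other WT libraries, with the 3 cytokine groups overlapping. The WT differences from control were -0.42 ± 0.06 (TGF-β), -0.38 ± 0.05 (IL-4) and -0.38 ± 0.07 (the combination), under the fold threshold. In KO cells *Spry1* was 25.1, 27.3 and 22.8 RPKM in control, 23.6, 23.0 and 24.7 with TGF-β, 16.0, 15.1 and 16.4 with IL-4, and 16.0, 12.7 and 14.2 in the combination. KO cultures with IL-4 lay below those without. *Spry1* fell by 0.63 on the log2 scale with IL-4 (SE 0.08, adjusted p = 0.00115) and by 0.77 with the combination (SE 0.10, adjusted p = 0.00401). The IL-4 call was lost without replicate 1 or 2 (adjusted p = 0.0277 and 0.0128). That of the combination was lost with no filter on low values (adjusted p = 0.0191), with the replicate number as a block (0.0227) and without any 1 replicate (lowest adjusted p = 0.0111). The genotype test was not passed for any cytokine, with adjusted p of 0.0308 (TGF-β), 0.504 (IL-4) and 0.0706 (the combination).

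*Spry2* was low, with group means from 0.506 RPKM in WT TGF-β to 1.01 in WT control, and its highest library was WT control replicate 3 at 1.33. *Spred1* had group means from 0.334 in the KO combination to 0.529 in WT TGF-β. Every group overlapped its neighbour in the order of levels for both genes, but groups farther apart did not: *Spry2* was 0.740 to 1.33 RPKM in WT control, above the 0.355 to 0.593 of WT TGF-β and the 0.439 to 0.594 of the WT combination.

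Patterns across the 24 libraries were set side by side as a description. A high Pearson r on log2(RPKM + 1) says that 2 genes vary alike across the libraries. The libraries share groups, so that a high value can come from large steps between cultures and does not give their order. *Dusp4* was most like *Il2rb* (0.983), which encodes the IL-2 receptor β chain, *Bin1* (0.981) and *Mical1* (0.980). *Dusp10* was most like *Erbb3* (0.986), *Il4ra* (0.976), the IL-4 receptor α chain, and *Wdr59* (0.972). *Dusp6* was closest to *Mmd* (0.962), *Dusp5* to *Csrp1* (0.946), *Dusp2* to *Gadd45b* (0.938), which encodes an activator of MAP3 kinases, and *Spry1* to *Cd5* (0.937) and *Cd6* (0.917), which encode related surface receptors of T cells. For *Dusp1* and *Dusp16* the best values were 0.884 (*Pdia3*) and 0.80 (*Slc16a6*). Between members the extremes included *Dusp10* with *Spry1* (-0.80) and *Dusp4* with *Dusp6* (-0.76).

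Other genes of the cascade were grouped in 9 lists of 122 genes. Like the members, these lists were chosen with earlier results of these data known, so their shares are a description. For WT TGF-β against control 12 of 91 tested genes were called (13.2%, beside 5.71% of all genes), 5 higher and 7 lower. For the WT combination it was 13 of 92 (14.1%, beside 9.27%; 10 higher, 3 lower), and for KO against WT in the combination 12 of 91 (13.2%, beside 8.44%; 4 higher, 8 lower). For IL-4 alone limma called 0 of 91 in WT cells, with 19 at an unadjusted p below 0.05, and 0 of 91 in KO cells, with 27, where 1.29% and 2.51% of all genes were called.

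Among the other 19 dual-specificity phosphatase genes, 1 of 12 tested was higher in the WT combination than in control, beside 6.43% of all genes. It was *Dusp14*, whose product dampens T cell receptor signalling, with 3.95 ± 0.498 RPKM in WT control, 8.35 ± 0.098 with TGF-β, 2.98 ± 0.270 with IL-4 and 7.40 ± 0.915 in the combination (SD, n = 3), and 2.11 to 3.35 as group means in KO cells. Its genotype test for TGF-β gave -0.64 ± 0.11 (adjusted p = 0.00178), and it was called lower in KO than in WT cells with TGF-β (-1.11) and in the combination (-1.41) but not in control or IL-4. Of the kinases, *Map3k8*, the ERK-activating kinase TPL2, was lower with TGF-β in WT cells (3.75 ± 0.236 to 1.37 ± 0.168 RPKM, log2 difference -1.0, adjusted p = 8.28e-05). Between genotypes in TGF-β, 1 of 9 tested MAP kinase genes was called, beside 9.68% of all genes. The gene was *Mapk3*, which encodes ERK1 (-0.71, adjusted p = 0.000508). *Mapkapk3*, a kinase activated by p38, rose with TGF-β in WT cells from 61.7 ± 2.53 to 149 ± 9.23 RPKM (1.26 ± 0.06, adjusted p = 6.25e-06), whereas in KO cells its group means were 44.2 in control and 47.8 with TGF-β. *Gadd45b* fell by 0.88 with TGF-β in WT cells (adjusted p = 0.000898), from 50.6 ± 7.58 to 26.9 ± 1.84 RPKM.

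On the RAS side, 2 of 11 tested RAS genes and activators were higher in the WT combination than in control, *Plcg1* (1.09 ± 0.08) and *Rasgrp1* (0.77 ± 0.08), and 1 was lower, *Rras2* (-0.86 ± 0.20, adjusted p = 0.00725). Over all genes tested in that comparison, 6.43% were called higher and 2.84% lower. *Rasgrp1*, which loads RAS with GTP after T cell receptor engagement, was 10.8 ± 0.504 RPKM in WT control, 11.0 ± 0.277 with TGF-β, 11.8 ± 1.16 with IL-4 and 19.1 ± 1.92 in the combination. In WT cells it passed the test of the combination against the sum of single effects (0.62 ± 0.11, adjusted p = 0.00525). In KO cells its means were 11.1 RPKM in control, 10.0 with TGF-β, 15.2 with IL-4 and 17.9 in the combination (13.3 to 26.2). Of 14 tested inhibitors of RAS and ERK, *Rasa3* (1.19) and *Rasal3* (0.68) were higher in the WT combination than in control and *Rasal1* (-0.85) lower. These encode RAS GTPase-activating proteins. Of the early genes that ERK induces, 15 tested, *Phlda1* (1.29), *Jun* (1.07) and *Egr2* (0.63) were higher and none was called lower by limma. For TGF-β alone 2 were higher, *Phlda1* (1.26) among them, and 2 lower, *Fos* (-1.08) and *Nr4a1* (-0.70), beside 3.42% and 2.28% of all genes. The list thus moved in both directions.

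DHSs were called from 1 DNase-seq library per condition, for control and the combination in WT and KO cells of replicate 3, so that no test is possible. The lists held 44298 DHSs in WT control, 33880 in the WT combination, 33665 in KO control and 27145 in the KO combination, and since their lengths differ, each DHS is given with its percentile of fold enrichment within its own list. A DHS overlapped the window of 1 kb on each side of the gene start for 9, 9, 7 and 9 of the 10 members in that order, beside 89.2%, 87.9%, 87.6% and 85.3% of the 8914 protein-coding genes averaging 1 RPKM or more. *Spry2*, with the second lowest RNA level of the members, lacked one in every list, and *Dusp10* and *Dusp16* lacked one in KO control. Within 20 kb of the 10 gene bodies lay 54, 42, 37 and 33 DHSs, which made up 58 separate regions, 26 of them in all 4 lists (44.8%) and 11 in WT control alone (19.0%). Over all DHSs merged in the same way, 43.2% of 50176 regions were in all 4 lists and 17.8% in WT control alone, close to the shares near the members. Of all DHSs of WT control, 68.1% overlapped one of the WT combination.

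**Figure D4:**
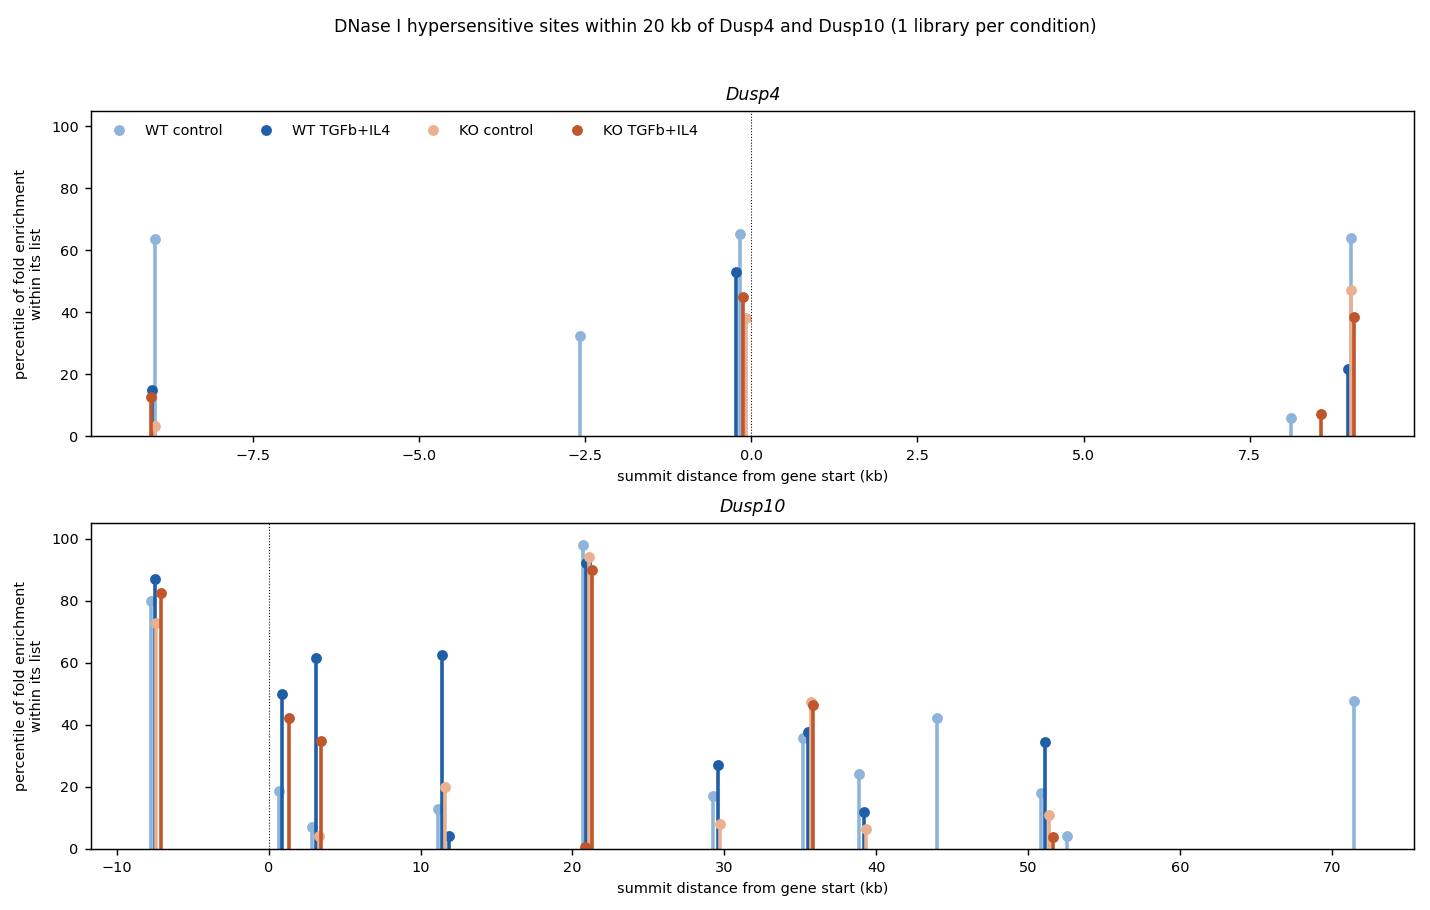
DHSs within 20 kb of *Dusp4* (top) and *Dusp10* (bottom), by distance of the summit from the gene start (horizontal axis, kb, sign following the gene) and percentile of fold enrichment within the list (vertical axis); the 4 lists are offset sideways by at most about the width of a marker. At *Dusp10* the DHSs 3.2 and 11.5 kb past the start stand at percentiles 61.5 and 62.3 in the WT combination, against 7.07 and 12.8 in WT control.

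At *Dusp4* the promoter DHS, with its summit at -159 bases from the start in the WT combination list (negative distances are upstream), was in all 4 lists. Its fold enrichment was 6.81 in WT control and 5.42 in the WT combination (percentiles 65.3 and 53.2), and 4.22 and 4.66 in the KO lists (38.3 and 44.9). DHSs at -8.9 kb and 9.1 kb from the start, the latter intronic, were also in all 4 lists and went from percentiles 63.8 and 64.1 in WT control to 15.0 and 21.7 in the WT combination. Falls at least as large were seen for 2.35% and 4.21% of the 30151 matched DHSs, and for 30.6% in the case of the promoter. No *Dusp4* DHS stood at a higher percentile in the WT combination than in WT control. The 200 bases around the promoter summit in the WT combination, chr8:35870092-35870291 (mm9, plus strand, all upstream of the start), are shown because *Dusp4* carries the TGF-β response, and hold none of the motifs searched.
*Dusp4* promoter DHS: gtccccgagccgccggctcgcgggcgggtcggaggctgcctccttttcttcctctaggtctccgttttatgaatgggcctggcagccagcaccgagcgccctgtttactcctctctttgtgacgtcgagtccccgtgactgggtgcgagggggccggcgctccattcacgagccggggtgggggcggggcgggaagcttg

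*Dusp10* had 12, 10, 8 and 7 DHSs in WT control, the WT combination, KO control and the KO combination. The strongest, with a fold enrichment of 13.8, 10.5, 9.46 and 8.44 and percentiles of 97.8, 92.0, 94.2 and 89.8, lay 21.0 kb past the gene start, its summit at -70 to -95 bases from the start of another annotated *Dusp10* transcript. The DHSs with the largest shifts between the WT lists were intronic. That at 1.0 kb went from percentile 18.4 to 49.9 (fold enrichment 4.10 to 5.25), that at 3.2 kb from 7.07 to 61.5 (3.52 to 5.99) and that at 11.5 kb from 12.8 to 62.3 (3.85 to 6.05). Rises at least as large were seen for 2.59%, 0.371% and 0.551% of the 30151 WT control DHSs with a match in the other list. In the KO lists the DHS at 3.2 kb went from percentile 3.89 to 34.8, that at 1.0 kb was listed with the combination alone (42.0), and that at 11.5 kb in control alone (19.9). These DHSs were singled out after their values were seen.

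The windows of 200 bases around the summits at 1.0, 3.2 and 21.0 kb are shown, at chr1:185838041-185838240, chr1:185840301-185840500 and chr1:185858067-185858266 (mm9, plus strand). Those at 1.0 and 3.2 kb are the shifted DHSs nearest the gene start, and that at 21.0 kb is the strongest. The DHS at 11.5 kb is not shown, although it rose by more percentile points (49.5) than that at 1.0 kb (31.5). It held no match to the motif marked here. Capitals mark TTCNNNNGAA, the spacing of the STAT half-sites that STAT6 favours, N being any base.
*Dusp10* DHS at 1.0 kb: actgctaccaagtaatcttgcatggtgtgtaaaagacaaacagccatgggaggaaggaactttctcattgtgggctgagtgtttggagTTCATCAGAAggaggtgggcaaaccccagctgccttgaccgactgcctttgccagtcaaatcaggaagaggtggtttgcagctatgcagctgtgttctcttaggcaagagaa
*Dusp10* DHS at 3.2 kb: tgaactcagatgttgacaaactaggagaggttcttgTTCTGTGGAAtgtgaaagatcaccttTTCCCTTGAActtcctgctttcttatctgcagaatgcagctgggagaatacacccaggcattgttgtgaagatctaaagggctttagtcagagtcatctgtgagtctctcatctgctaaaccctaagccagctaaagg
*Dusp10* DHS at 21.0 kb: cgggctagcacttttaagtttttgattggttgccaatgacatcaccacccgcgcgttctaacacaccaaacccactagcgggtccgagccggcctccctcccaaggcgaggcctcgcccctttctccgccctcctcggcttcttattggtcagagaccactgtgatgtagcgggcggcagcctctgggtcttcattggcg

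The search covered both strands for TTCNNNNGAA, for the AP-1 site TGANTCA, for the cyclic AMP response element TGACGTCA and for the palindromic SMAD-binding element GTCTAGAC. All 4 read the same on both strands, and none can contain another. TTCNNNNGAA matched 2 of the 42 member DHSs in the WT combination, those of *Dusp10* at 1.0 and 3.2 kb, the latter with 2 matches, and 5.96% of all 33880 windows of that list. TGANTCA matched 2 of the 42, at -2.8 kb from *Dusp2* and -18.0 kb from *Dusp6*, and 10.6% of all windows. TGACGTCA matched 1 of 42, at the *Dusp1* promoter, and 1.60% of all windows, and GTCTAGAC matched none of the 42 and 0.274% of all. Over the 200 bases around the starts of all 22380 protein-coding genes, the shares were 4.01%, 4.13%, 1.93% and 0.0804% in the order STAT, AP-1, cyclic AMP element and SMAD. A match is a run of letters and not evidence of binding.

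The *Dusp1* window is chr17:26645466-26645665 (mm9), shown on the plus strand although the gene reads on the minus strand, with the cyclic AMP response element in capitals, an element known for *Dusp1* and other immediate-early genes. Its DHS was in all 4 lists, at percentiles from 52.6 to 73.0.
*Dusp1* promoter DHS: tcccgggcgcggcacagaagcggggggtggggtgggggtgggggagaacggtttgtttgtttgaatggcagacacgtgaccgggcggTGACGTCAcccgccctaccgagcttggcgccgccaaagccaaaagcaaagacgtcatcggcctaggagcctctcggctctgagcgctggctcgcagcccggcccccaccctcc

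The promoter DHSs of *Dusp6*, *Spry1* and *Dusp5* were the strongest of the gene starts. *Dusp6* had fold enrichments of 10.3 in WT control, 8.58 in the WT combination, 7.65 in KO control and 7.63 in the KO combination, with percentiles from 83.8 to 88.6, although its RNA was higher in KO control than in WT control. *Spry1* stood at 10.5, 10.6, 6.68 and 8.93 and *Dusp5* at 10.9, 9.46, 9.48 and 8.27. *Dusp2*, the member with the most RNA, had a weak DHS at its start, with fold enrichments from 3.15 to 3.98 and percentiles from 3.34 to 16.3. Over the members, the order of promoter DHSs was not the order of RNA levels.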

How the data were processed

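RNA-seq (24 libraries, Smart-seq2) and DNase-seq (4 libraries) were aligned by the authors to mm9 with Bowtie2, and reads with a mapping quality of at most 10 and reads at the same position and orientation were removed. Removing such copies can hold down the values of very abundant genes, and Smart-seq2 libraries carry no strand. The authors deposited RPKM per gene without read counts, so no count test was the main one and depth is unknown. For each DHS, called by the authors with MACS2 per library, the deposited lists hold the fold enrichment (a ratio to background) and the −log10 q. The DHS calls are from single libraries. 0 value columns were left unmapped.

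Columns of the RPKM table were read by position in library-number order. Groups of 3 were compared with limma 3.58.1 (R 4.3.3, empirical Bayes with a trend) on log2(RPKM + 1), with the compared groups alone in each fit, for genes averaging 1 RPKM or more, and Benjamini-Hochberg adjustment over all genes tested. Calls needed an adjusted p below 0.01 and a fold change above 1.5. Simulated data with 200 changed genes were used to check the fits. Gene positions and sequences came from NCBIM37 (mm9) and GENCODE vM1. Other steps used Python 3.11.15, pandas 2.3.3 and matplotlib 3.10.9. The members, the pathway lists and the comparisons were chosen with earlier results of these data known. Named genes were all members, *Tgfbr1*, at most 3 called genes with the largest change per pathway list and comparison, and up to 3 genes most like each member.

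Replicate numbers in the library titles are shared between cultures and genotypes, but the sources used here do not say for the RNA-seq libraries that a number marks 1 mouse, so the numbers were not taken to pair cultures. Whether the 3 libraries of a group came from separate mice or cultures is not given either, and p-values then measure the spread between these libraries, which may be technical.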

Additional observations from a re-analysis of the deposited data

Results flagged for a closer look

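2 results were set apart because the difference between the genotypes was itself tested and passed. The *Dusp4* response to TGF-β was smaller in KO than in WT cells by a log2 difference of -1.12, and its response to TGF-β + IL-4 together by -1.59. *Dusp4* rose from a mean of 25.6 to 61.7 RPKM with TGF-β in WT cells and was 12.1 and 13.2 RPKM in the matching KO cultures. Groups of 3 are too small for a check of single outlying libraries.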

How the results depend on the processing

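Read by column heading instead of position, every comparison that called members lost them: 0 were called for TGF-β, IL-4 or the combination against control in WT cells, for the combination against TGF-β or IL-4 alone, for IL-4 or the combination in KO cells, between genotypes in any of the 4 cultures, and in the genotype tests of TGF-β and of the combination. The KO minus WT differences were then -1.45 to -1.92 for *Dusp4*, and 0.70 in control and 0.77 with TGF-β for *Dusp6*. Both readings keep each column in its genotype, so differences of this kind are no check of either reading. Read by heading, WT replicates lay farther apart (median SD 0.141 against 0.0892), whereas KO replicates hardly differed (0.112 against 0.109). The cause was not tested beyond the matched read counts, which cover no KO column. Apart from the headings, 16 of 128 results of single members changed their call under at least 1 alternative, of 16 results each 6 of *Dusp5*, 3 of *Dusp10* and 0 of *Dusp4*, and none changed to a call in the opposite direction. With only WT replicates 1 and 3, the same fit as without replicate 2, the combination against TGF-β alone called 2 members in place of 1. Without the filter on low values, the combination against control in KO cells called 1 member in place of 3 and KO against WT in the combination 1 in place of 2. With all 24 libraries in one fit, KO against WT in the combination also called 1. At an adjusted p below 0.05 the genotype test of TGF-β called 2. With the replicate number as a block (replicate block), the combination against control in KO cells called 1 member and the genotype test of TGF-β 2, and no other within-genotype or genotype test changed its count by over 1.5 times. Between genotypes in 1 culture the block left 1 member called in control. The libraries share only a number: deviations from group means of same-numbered libraries correlated at a median of 0.06 in WT (-0.09 to 0.55, 8 of 18 pairs over 0.1) and 0.18 in KO (-0.30 to 0.42, 10 of 18), and a library's best match in another culture bore its own number in 17 of 36 cases in WT and 21 of 36 in KO. Leaving out 1 replicate number at a time from all groups of a comparison within a genotype, the members called ranged from 1 to 2 for TGF-β, 0 to 1 for IL-4, 2 to 3 for the combination against control in WT cells, 1 to 2 for the combination against TGF-β and 1 to 2 against IL-4. In KO cells they ranged from 0 to 0 for TGF-β, 1 to 2 for IL-4 and 0 to 1 for the combination. Leaving out 1 library at a time between genotypes they ranged from 1 to 2 in control, 2 to 4 in TGF-β, 1 to 1 in IL-4 and 1 to 2 in the combination. Without 1 replicate number of 1 genotype, the genotype tests gave 1 for TGF-β, 0 for IL-4 and 1 for the combination throughout. Without any 1 replicate number the test against the sum of single effects called 0. Requiring a −log10 q of at least 5, a summit inside the window or a window of 500 bp on each side kept every DHS count within 1.5 times. Total depth is unknown, so that counting error could not be given.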
